A study of Mus musculus with 4 samples.

Results

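Cellular iron handling was followed through 10 mouse genes for iron uptake, storage, export and sensing: Steap3, Slc11a2, Tfrc, Fth1, Ftl1, Slc40a1, Hmox1, Ireb2, Aco1 and Fbxl5. They were picked by symbol from the 43496 Ensembl genes of the deposited count table, and all 10 were present and passed the filter on low counts. RNA-seq had been made from E14 cells, a pluripotent mouse embryonic stem cell line (strain label 12910la) kept on gelatin in serum with LIF. MERVL shRNA cells (genotype label MERVL knocked down; 2 libraries) had received a pSuper puro plasmid with an shRNA against MuERVL, an endogenous retrovirus also called MERVL. Random shRNA cells (genotype label wild type; 2 libraries) are the control of the series. The labels give 1 protocol for both groups, 1000 ng of plasmid and, from 24 h on, puromycin at 1 µg/ml for 4 days. Steap3 had entered the selection because earlier results of these data placed it among the genes with the smallest p in this contrast. Its values are therefore a description with no test. The other 9 genes were named for their role in iron handling.

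Iron enters most cells bound to transferrin, which the transferrin receptor Tfrc carries into endosomes. There the metalloreductase Steap3 reduces the iron and the divalent metal transporter Slc11a2 moves it into the cytosol. Ferritin, a shell of heavy chains (Fth1) and light chains (Ftl1), stores the surplus, ferroportin (Slc40a1) exports it, and heme oxygenase 1 (Hmox1) frees iron from heme. The iron regulatory proteins Aco1 and Ireb2 bind hairpins called iron-responsive elements (IREs) when iron is scarce: an IRE in a 5′ UTR holds back translation, and IREs in a 3′ UTR protect the mRNA from decay. Fbxl5 is the substrate adaptor of a ubiquitin ligase that removes Ireb2 when iron is plentiful.

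The hairpins that place a member under this control are shown first, because they divide the genes into storage and export on one side and uptake on the other. Annotated UTRs of GENCODE M21 (GRCm38, the assembly also called mm10) were searched on the transcribed strand for the 6-base loop CAGTGN, with any last base but G. The loop had to sit between 5 bases on either side that pair with each other (G-T pairs allowed), below which an unpaired C bulges on the 5′ side. Among the 10 members the 5′ UTRs of Fth1, Ftl1 and Slc40a1 held a match, as did 0.101% of the 20890 genes with an annotated 5′ UTR. In 3′ UTRs Tfrc held 4 matches, and 0.467% of 21004 genes held at least 1. No match in Slc11a2 says only that these letters are not in the UTRs searched. In the 30-base windows, capitals mark the 6-base loop.
Fth1, 5′ UTR, chr19:9982732-9982761, plus strand: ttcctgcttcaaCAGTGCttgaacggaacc
Ftl1, 5′ UTR, chr7:45459778-45459807, minus strand: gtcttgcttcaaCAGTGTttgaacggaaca
Slc40a1, 5′ UTR, chr1:45925464-45925493, minus strand: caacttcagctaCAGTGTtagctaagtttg
Tfrc, 3′ UTR, site 1, chr16:32631219-32631248, plus strand: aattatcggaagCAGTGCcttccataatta
Tfrc, 3′ UTR, site 2, chr16:32631598-32631627, plus strand: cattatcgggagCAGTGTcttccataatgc
Tfrc, 3′ UTR, site 3, chr16:32631663-32631692, plus strand: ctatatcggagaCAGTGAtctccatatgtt
Tfrc, 3′ UTR, site 4, chr16:32631710-32631739, plus strand: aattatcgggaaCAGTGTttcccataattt
These counts measure RNA, so control of translation through the 5′ UTR hairpins lies outside them.

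Libraries held 16067854 and 14570056 estimated counts with MERVL shRNA, against 15496921 and 11628887 with random shRNA. The targeted element, summed over all copies, stood at 1161 and 572.3 CPM with MERVL shRNA and at 4661 and 1431 CPM with random shRNA. CPM here is the count scaled to library size after TMM normalization, which corrects for library composition. The random shRNA libraries lay further apart than the MERVL shRNA libraries: their Pearson r on log2(CPM + 1) across features was 0.972 against 0.995, where features are not independent replicates. Random shRNA replicate 2 correlated more closely with the MERVL shRNA libraries, at 0.987 and 0.985, than with the other library of its own group. Calls that depend on leaving out either random shRNA library are therefore given beside the results. All 8 pluripotent cell markers were detected, with a summed level of 8584 and 9303 CPM in MERVL shRNA libraries and 7227 and 8363 CPM in random shRNA libraries. Of 8 erythroid markers, Hbb-bt and Hbb-y were at 0 in every library, Gata1, Klf1 and Epor passed the low-count filter, and the sum was 6.54 and 6.03 CPM with MERVL shRNA and 3.83 and 8.22 CPM with random shRNA. A count of 0 allows up to 0.189 and 0.213 CPM in the MERVL shRNA libraries and 0.191 and 0.252 CPM in the random shRNA libraries. Markers of fibroblasts summed to 18.5 and 15.3 CPM with MERVL shRNA and 31.0 and 41.4 CPM with random shRNA, with 4 of 8 at 0 in all libraries. Within that list Thy1 had 8.67 and 6.88 CPM with MERVL shRNA and 23.1 and 28.9 CPM with random shRNA. Col1a1 also lay lower without overlap, at 0.629 and 0.851 CPM with MERVL shRNA and 1.98 and 1.26 CPM with random shRNA. Col1a2, too low to be tested, had 0.0629 and 0 CPM with MERVL shRNA and 0.447 and 0.335 CPM with random shRNA. The values of Pdgfrb overlapped. Macrophage markers summed to 17.3 and 15.9 CPM with MERVL shRNA and 23.6 and 18.1 CPM with random shRNA. Of these, 3 of 7 (Ptprc, Adgre1 and Aif1) were at 0, and Csf1r, Cd68 and Spi1 passed the low-count filter. Cd68 had 9.81 and 8.16 CPM with MERVL shRNA and 11.99 and 10.06 CPM with random shRNA. Spi1 had 0.629 and 0.355 CPM with MERVL shRNA and 1.021 and 1.426 CPM with random shRNA. Csf1r overlapped, at 6.79 and 7.38 CPM with MERVL shRNA and 10.59 and 6.54 CPM with random shRNA. Visceral endoderm markers summed to 14.27 and 11.85 CPM with MERVL shRNA and 11.55 and 14.09 CPM with random shRNA. Of these 7 markers, 4 passed the low-count filter, and the groups overlapped for all 4. The part of fibroblasts, macrophages or visceral endoderm in the results was not tested. The labels do not say that the 2 libraries of a group came from separate cultures, so p-values measure the spread between these libraries, which may be technical.

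Per kilobase of merged exons, ferritin mRNAs were the most abundant of the 10 and ferroportin mRNA the least. Mean levels per kilobase with MERVL shRNA and with random shRNA were 1062 and 772.0 CPM for Ftl1, 195 and 153 CPM for Fth1, and 65.6 and 50.8 CPM for Tfrc. Hmox1 followed at 58.2 and 57.4 CPM per kilobase and Ireb2 at 25.4 and 22.7. The levels of Tfrc and Hmox1 changed order between libraries: in random shRNA replicate 1 Hmox1 stood at 64.8 and Tfrc at 40.5 CPM per kilobase. Aco1 came next at 11.7 and 11.4 CPM per kilobase and then Fbxl5 at 11.1 and 9.15, which were close to each other in the MERVL shRNA libraries. Steap3 had 2.82 CPM per kilobase with MERVL shRNA and 7.28 with random shRNA. It lay below Slc11a2 (3.44) in the first group and above it (4.32) in the second. Slc40a1 was lowest, at 0.164 and 0.234 CPM per kilobase. Merged exons include long alternative exons, which lowers the per-kilobase level of genes such as Fth1.

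Steap3, the endosomal metalloreductase, was the member with the widest difference. It had 15.1 and 17.2 CPM in MERVL shRNA libraries, against 45.6 and 37.6 CPM in random shRNA libraries, from 240.0 and 242 counts against 715 and 448. Both MERVL shRNA libraries lay below both random shRNA libraries, and the lower random shRNA library stood well above the higher MERVL shRNA library. The group means were 16.1 ± 1.47 and 41.6 ± 5.69 CPM (SD, n = 2 each), a log2 fold change of -1.37 ± 0.18 (SE). Leaving out each library in turn gave log2 fold changes from -1.49 to -1.22. Steap3 lies on chromosome 1 of GRCm38, positions 120190757 to 120272705, on the minus strand. In bulk RNA, fewer cells expressing a gene and less RNA per cell cannot be told apart.

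**Figure D1:**
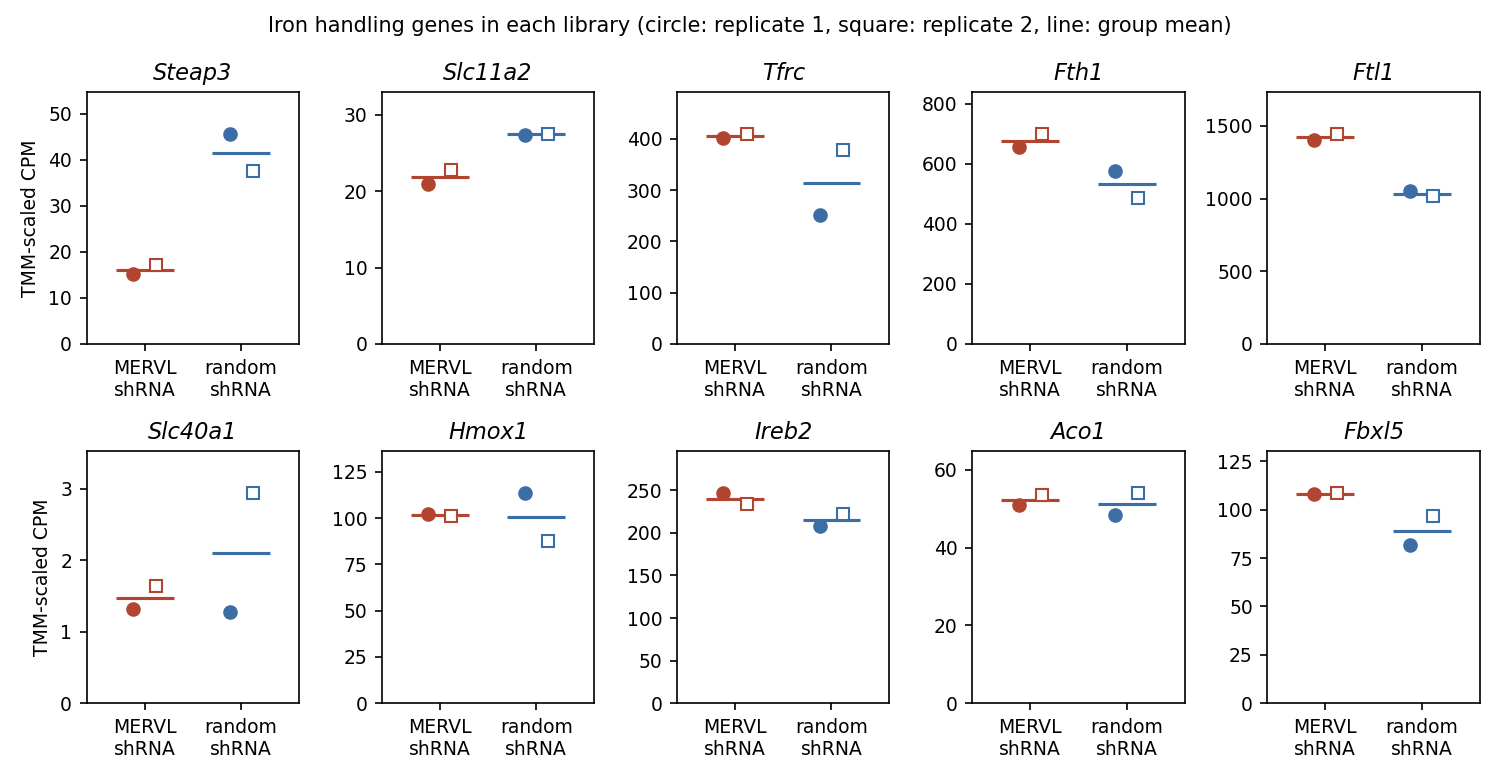
TMM-scaled CPM of the 10 iron handling genes in each library, on axes that start at 0, with 1 panel per gene. MERVL shRNA is on the left and random shRNA on the right of each panel, circles are replicate 1, squares replicate 2, and lines are group means. Steap3 is at 15.1 and 17.2 CPM with MERVL shRNA and at 45.6 and 37.6 CPM with random shRNA, whereas the values of Hmox1, Aco1 and Slc40a1 overlap.

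The STEAP paralogues Steap1 and Steap2 differed far less than Steap3 did. Steap2 had 20.7 and 21.2 CPM with MERVL shRNA and 25.1 and 22.8 CPM with random shRNA, a log2 fold change of -0.20 ± 0.16 (edgeR adjusted p = 0.651). Steap1 had 16.3 and 20.5 CPM with MERVL shRNA and 24.4 and 17.02 CPM with random shRNA, with overlapping groups and a log2 fold change of -0.18 ± 0.23 (edgeR adjusted p = 0.802). Limma on the authors' scores called Steap2 and not Steap1. Steap4 stayed under 1 CPM in all 4 libraries and was not tested. Steap1 stood at 0.12 (adjusted p = 0.710) when random shRNA replicate 1 was left out, and at -0.40, which edgeR called (adjusted p = 0.0311), when replicate 2 was. The differences between paralogues were not tested against that of Steap3, whose own difference led to its selection.

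The 5 genes with the profile most like Steap3 over the 4 libraries were Scml2, Rhod, Gprc5c, Hdc and Muc3. Likeness was the Euclidean distance of log2(CPM + 1) centred on each gene's mean, over 12766 named genes with a mean of at least 1 CPM, and it ran from 0.0736 for Scml2 to 0.215 for Muc3. Scml2, a Polycomb group protein of the germline, had 1.70 and 1.92 CPM with MERVL shRNA and 6.32 and 5.37 CPM with random shRNA. Hdc, the enzyme that makes histamine, had 1.006 and 1.064 CPM with MERVL shRNA and 4.40 and 3.27 CPM with random shRNA. None of the 5 is on the lists of iron genes, and 4 libraries give such a ranking little resolution. All 5 stood below Steap3 in every library, and the added 1 CPM shrinks log2 differences more at such low levels.

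Of the 9 members other than Steap3, edgeR's quasi-likelihood test called none at an adjusted p under 0.05, where it called 1 of 16353 features tested (0.00612%). At an unadjusted p under 0.05 it gave 1 of the 9 higher, Ftl1, and 0 lower, against 4.69% and 8.92% of all features. Both MERVL shRNA libraries lay above both random shRNA libraries for 5 of the 9 (22.1% of all features) and below them for 1 (24.1%). The median log2 fold change of the 9 was 0.16, beside -0.01 over all features. Adjusted p-values of the 9 ran from 0.329 for Ftl1 to 0.976 for Hmox1, and a p that misses the threshold does not show that the groups are alike. The 95% interval of each log2 fold change is therefore given with it. DESeq2 also called 0 of the 9, where it called 0.499% of features higher and 1.13% lower, and limma-voom called 0 of the 9 and 0 features. Other edgeR settings that called 0 of the 9 were no filter on low counts (0.991% of features higher and 3.76% lower), a CPM filter (0.00654% higher) and a term for the replicate number (0.673% higher and 3.84% lower). The same held without MERVL shRNA replicate 1 (0.0116% higher) and without MERVL shRNA replicate 2 (0.0115% higher). Leaving out a random shRNA library did bring calls, all of them higher: 2 of the 9 without replicate 1 (6.77% of features higher and 7.28% lower) and 3 of the 9 without replicate 2 (14.9% higher and 17.4% lower).

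**Figure D2:**
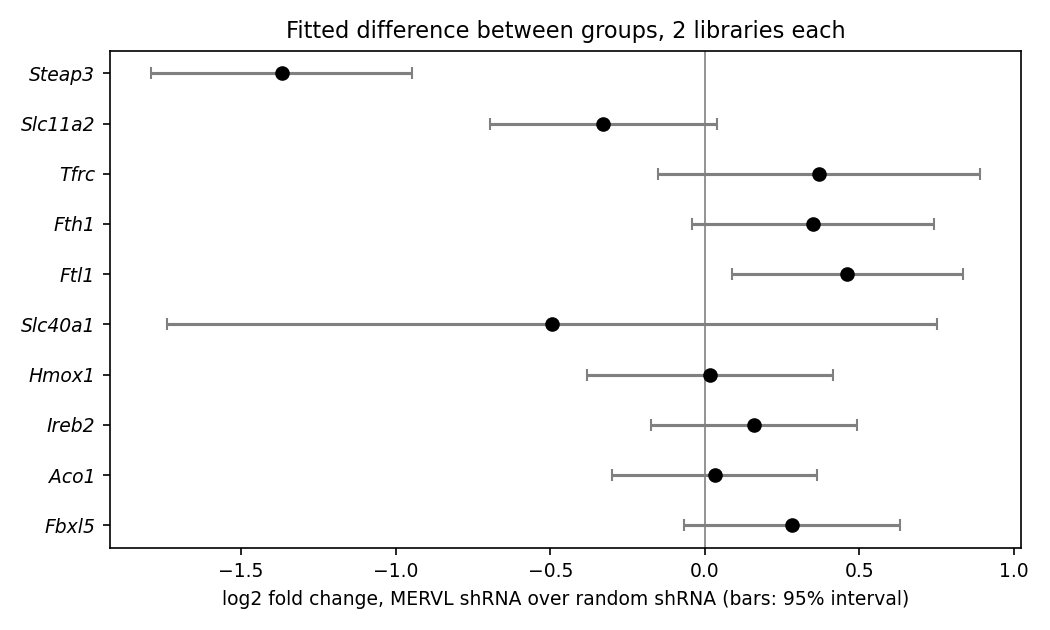
Fitted log2 fold change of each iron handling gene, MERVL shRNA over random shRNA, with its 95% interval from the edgeR fit over all 16353 features. Steap3 stands at -1.37. It was chosen for its group difference, so its interval is a description and no test. The other 9 lie between -0.50 for Slc40a1 and 0.46 for Ftl1. The widest interval is that of Slc40a1, with 20 to 35 counts per library.

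Among the other genes of uptake, the receptor and the transporter pointed in opposite directions. Tfrc, whose mRNA carries the 3′ UTR hairpins printed above, had 402 and 410 CPM with MERVL shRNA, against 251 and 378 CPM with random shRNA. Both MERVL shRNA libraries were above both random shRNA libraries, but random shRNA replicate 2 lay close to them and far from replicate 1. The log2 fold change was 0.37 ± 0.22 (95% interval -0.15 to 0.89; edgeR adjusted p = 0.517). Leaving out random shRNA replicate 2 gave 0.71, which edgeR called (adjusted p = 2.11e-06). Leaving out replicate 1 instead gave 0.11 (adjusted p = 0.661). When 1 library is left out, the lone library of its group is assumed to vary like the other pair. Slc11a2 had 20.99 and 22.8 CPM with MERVL shRNA, against 27.4 and 27.5 CPM with random shRNA. Its groups did not overlap and each pair was close, with a log2 fold change of -0.33 ± 0.15 (95% interval -0.70 to 0.04; edgeR adjusted p = 0.409). Leave-one-out values of its log2 fold change ran from -0.37 to -0.24.

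Both ferritin chains, which store iron, had higher values in each MERVL shRNA library than in each random shRNA library. Ftl1, the light chain, had 1402 and 1444 CPM with MERVL shRNA, against 1053 and 1015 CPM with random shRNA. The gap between groups was wider than that within either pair, and the log2 fold change was 0.46 ± 0.15 (95% interval 0.09 to 0.83; edgeR adjusted p = 0.329). Fth1, the heavy chain with ferroxidase activity, had 655 and 699.5 CPM with MERVL shRNA, against 577 and 487 CPM with random shRNA. Its log2 fold change was 0.35 ± 0.16 (95% interval -0.04 to 0.74; edgeR adjusted p = 0.407). Without random shRNA replicate 1 edgeR called Fth1 (0.48, adjusted p = 0.00953) and Ftl1 (0.49, adjusted p = 0.0198). Without random shRNA replicate 2 it called Ftl1 (0.45, adjusted p = 0.0197) but not Fth1 (0.25, adjusted p = 0.180).

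The Ftl1 value depends on how reads were shared with near-identical copies. The coding sequence of Ftl1 is 552 bases long, and over the aligned bases Ftl1-ps1 on chromosome 13 matched it at 99.6%, Ftl2-ps on chromosome 4 at 98.7% and Ftl1-ps2 on chromosome 10 at 97.8%. The copies had fitted log2 fold changes of 0.45 ± 0.16 for Ftl1-ps1, 0.58 ± 0.14 for Ftl1-ps2 and 0.38 ± 0.17 for Ftl2-ps. With all 4 libraries and the low-count filter edgeR called none of them. It called Ftl1-ps1 and Ftl1-ps2 without random shRNA replicate 1 and without replicate 2. With no filter on low counts edgeR called Ftl1-ps2, and limma on the authors' scores called Ftl1-ps1, Ftl1-ps2 and Ftl2-ps. Ftl1 itself held 32.6% and 30.8% of the counts of the 4 copies in MERVL shRNA libraries and 30.4% and 31.4% in random shRNA libraries. Ftl2-ps, annotated as a processed pseudogene, held the largest share, 44.2% and 45.4% with MERVL shRNA and 46.3% and 46.0% with random shRNA. Because these shares were similar in all 4 libraries, the sum gave nearly the same difference as Ftl1 alone. The 4 copies together had 4303 and 4685 CPM with MERVL shRNA, against 3468 and 3229 CPM with random shRNA. The log2 fold change of the sum was 0.42 ± 0.18 (95% interval -0.0018 to 0.85; edgeR adjusted p = 0.369). This sum was chosen after the data were seen.

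**Figure D3:**
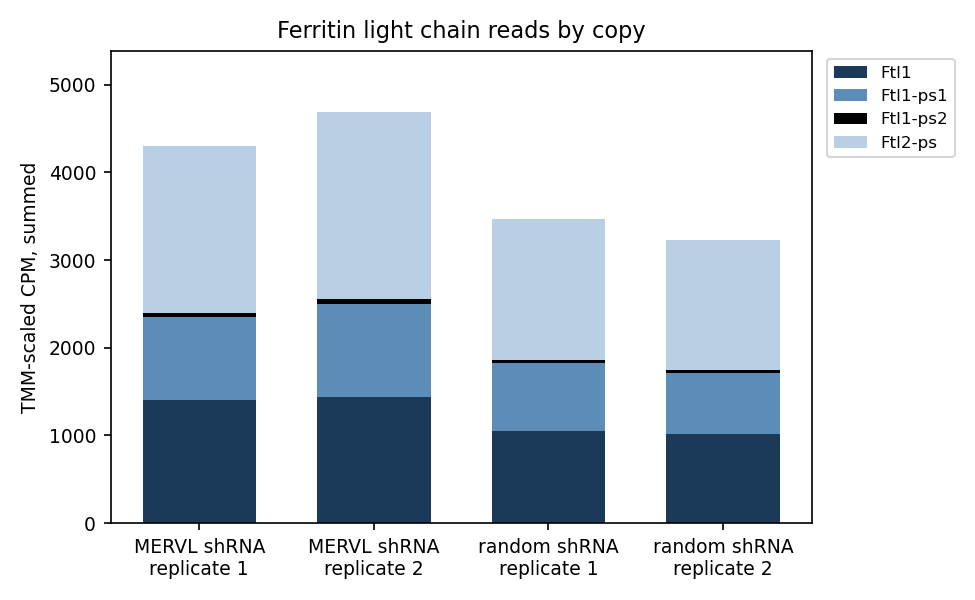
TMM-scaled CPM assigned to Ftl1 and its 3 near-identical copies in each library, stacked, with MERVL shRNA on the left. The stacks reach 4303 and 4685 CPM with MERVL shRNA and 3468 and 3229 CPM with random shRNA, and Ftl1 makes up 30.4% to 32.6% of the counts in each.

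On CPM the values of the export and heme breakdown genes overlapped between groups. Slc40a1, the only known iron exporter of mammalian cells, had 21 and 23 counts with MERVL shRNA and 20 and 35 counts with random shRNA, or 1.32 and 1.63 CPM against 1.28 and 2.94 CPM. The groups overlapped, and the log2 fold change of -0.50 ± 0.52 had a 95% interval from -1.74 to 0.75 (edgeR adjusted p = 0.737). It was 0.22 without random shRNA replicate 2, so at this depth no direction could be given. Hmox1 had 103 and 101 CPM with MERVL shRNA, which lay between the random shRNA values of 114 and 87.5 CPM. Its log2 fold change was 0.02 ± 0.16 (95% interval -0.38 to 0.41; edgeR adjusted p = 0.976). On the authors' scores both genes separated without a call, Slc40a1 at 18 and 23 with MERVL shRNA and 28 and 30 with random shRNA, and Hmox1 at 1482 and 1459 with MERVL shRNA and 1438 and 1432 with random shRNA.

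Among the sensors, Fbxl5 and Ireb2 had groups that did not overlap, whereas those of Aco1 overlapped. Fbxl5, the iron-sensing ligase adaptor, had 108 and 108.5 CPM with MERVL shRNA, against 81.5 and 96.7 CPM with random shRNA. The log2 fold change was 0.28 ± 0.14 (95% interval -0.07 to 0.63; edgeR adjusted p = 0.452), and 0.43 without random shRNA replicate 2, where edgeR called it (adjusted p = 0.00276). Ireb2, the iron regulatory protein that Fbxl5 removes, had 246.5 and 234 CPM with MERVL shRNA, against 208 and 222 CPM with random shRNA. Its log2 fold change was 0.16 ± 0.14 (95% interval -0.17 to 0.49; edgeR adjusted p = 0.674). Aco1, which doubles as a cytosolic aconitase, had 51.1 and 53.6 CPM with MERVL shRNA and 48.5 and 54.0 CPM with random shRNA. It was the steadiest of the 10 genes, with a highest library 1.11 times the lowest and a log2 fold change of 0.03 ± 0.14 (95% interval -0.30 to 0.36; edgeR adjusted p = 0.942).

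The gap between the random shRNA libraries was set beside each difference between groups, on log2(CPM + 1). Over the 10 genes its median size was 0.24, against 0.07 between the MERVL shRNA libraries. For Tfrc the group difference was 0.40 and the gap between random shRNA replicates -0.59 (replicate 1 minus replicate 2). For Hmox1 these were 0.03 and 0.37, and for Slc40a1 -0.28 and -0.79. In all 3 genes the random shRNA libraries were further apart from each other than the group means were. For Ftl1 the values were 0.46 and 0.05, and for Slc11a2 -0.32 and -0.004. For Steap3, chosen for its group difference, they were -1.31 and 0.27. MERVL itself was 4661 CPM in random shRNA replicate 1 and 1431 CPM in replicate 2, and its part in these gaps was not tested.

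The authors' normalized scores narrowed that gap: the median gap over the 10 genes was 0.07 between MERVL shRNA libraries and 0.05 between random shRNA libraries on log2(score + 1). Tfrc had scores of 5611 and 5822 with MERVL shRNA and 4617 and 4472 with random shRNA. On these scores limma called 4 of the 9 genes higher, Tfrc (0.33, adjusted p = 0.0244), Fth1 (0.35, adjusted p = 0.0281), Ftl1 (0.44, adjusted p = 0.0244) and Fbxl5 (0.25, adjusted p = 0.0250), beside 13.1% of all features. It called 1 lower, Slc11a2 (-0.35, adjusted p = 0.0353), beside 14.5% of all features. On the scores 6 of the 9 lay higher without overlap, beside 34.5% of all features, and 2 lower, beside 40.1%. No label or header says how these scores were calculated, so the calls stand beside the count tests and do not replace them.

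**Figure D4:**
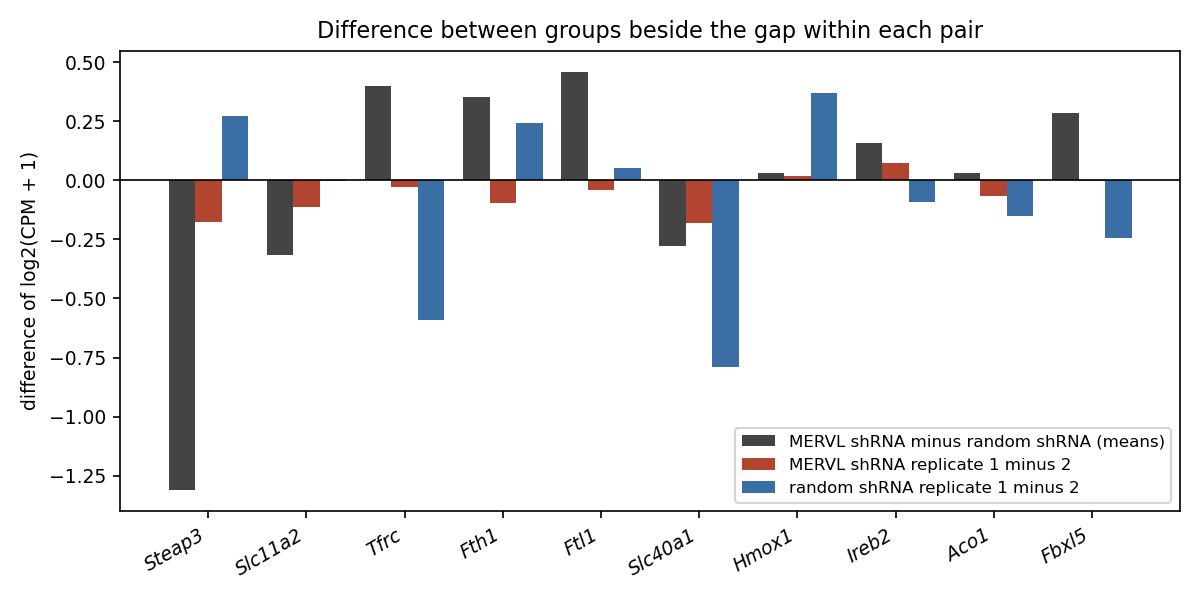
Difference between the group means (grey, MERVL shRNA minus random shRNA), between the MERVL shRNA libraries (red) and between the random shRNA libraries (blue), each replicate 1 minus replicate 2, on log2(CPM + 1). For Tfrc, Hmox1 and Slc40a1 the blue bar is longer than the grey one, and for Ftl1 the grey bar reaches 0.46 beside a blue bar of 0.05. Steap3 was chosen for its group difference.

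The wider set of iron genes was read from 10 lists, of which 94 genes were tested. With all 4 libraries, the low-count filter and no term for replicate number, edgeR called none of the 94 (0.00612% of all features). DESeq2 called 1 higher (Slc11a1) and limma-voom none. With no filter edgeR called 3 higher (Ftl1-ps2, Iscu and Slc11a1), beside 0.991% of features. With a term for replicate number it called 2 higher (Iscu and Slc11a1), beside 0.673%. At an unadjusted p under 0.05 edgeR gave 8 higher and 2 lower, against 4.69% and 8.92% of all features. Both MERVL shRNA libraries lay above both random shRNA libraries for 28 genes (22.1% of all features) and below them for 21 (24.1%). Signs were even, with 47 positive and 47 negative and a median log2 fold change of -0.01, beside -0.01 over all features. Without random shRNA replicate 1 edgeR called 14 of the 94 higher and 7 lower, where it called 6.77% and 7.28% of all features. Without random shRNA replicate 2 it called 15 higher and 11 lower, where it called 14.9% and 17.4% of all features. On the authors' scores limma called 16 higher and 13 lower, beside 13.1% and 14.5% of all features. Slc11a1, listed with its earlier result known, is among the genes higher at an unadjusted p. So are Ftl1-ps1 and Ftl1-ps2, near-identical copies of the member Ftl1. These genes are also among those called higher on the scores and when either random shRNA library was left out.

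In the list of uptake and transport, 11 of 12 tested genes had a negative log2 fold change, beside 8405 of 16353 features. The list median was -0.25. With all 4 libraries, the low-count filter and no term for replicate number, edgeR called 0 in either direction. Without random shRNA replicate 2, Slc39a8 (0.57), Tfr2 (0.19), Slc25a28 (0.16), Mcoln1 (0.07) and Slc22a17 (0.05) turned positive. Slc39a14 and Slc25a37 then stood at -0.03 and -0.006, while Trf, Cybrd1, Snx3 and Exoc6 stayed negative. Without random shRNA replicate 1 instead, all of these genes were negative. Slc39a8 then stood at -0.65, Tfr2 at -1.42, Slc25a28 at -0.45, Mcoln1 at -0.16 and Slc22a17 at -0.61. Slc39a14 and Slc25a37 were at -0.41 and -0.36. Trf, transferrin, had 6.41 and 6.60 CPM with MERVL shRNA and 9.44 and 10.2 CPM with random shRNA, a log2 fold change of -0.60 ± 0.23 (edgeR adjusted p = 0.347). Exoc6, an exocyst subunit needed for transferrin recycling, had -0.41 ± 0.20 and Snx3, a sorting nexin that returns the transferrin receptor to the surface, -0.25 ± 0.16. EdgeR called Trf (-0.65, adjusted p = 0.0264) and Exoc6 (-0.57, adjusted p = 0.00894) without random shRNA replicate 1 and Snx3 (-0.40, adjusted p = 0.00498) without replicate 2, and limma on the scores called all 3. The exception with all 4 libraries was Slc11a1, the phagosomal metal transporter related to Slc11a2. It had 125 and 133 CPM with MERVL shRNA against 3.64 and 11.0 CPM with random shRNA. Its log2 fold change was 4.17 ± 0.45. It lies near Catip on chromosome 1, the single feature edgeR called (log2 fold change 4.33 ± 0.22, adjusted p = 0.00923). The gene list was chosen with that earlier result known, so the values of Slc11a1 are a description with no test.

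Storage and sensing partners had log2 fold changes between -0.26 for Pcbp2 and 0.22 for Rbx1. Ncoa4, the receptor that delivers ferritin to autophagosomes, had 124 and 123 CPM with MERVL shRNA and 127.3 and 127 CPM with random shRNA, a log2 fold change of -0.04 ± 0.13. The iron chaperones Pcbp1 and Pcbp2 had -0.09 ± 0.19 and -0.26 ± 0.21. Ftmt, mitochondrial ferritin, had 0 counts in every library. In the ligase that uses Fbxl5, the core subunits Skp1a, Cul1 and Rbx1 had -0.17 ± 0.14, -0.15 ± 0.18 and 0.22 ± 0.16, and Herc2, a ligase for Ncoa4 and Fbxl5, had -0.15 ± 0.17. With all 4 libraries edgeR called none of these 7 tested genes. Leaving out random shRNA replicate 2, it called Pcbp2 (-0.49, adjusted p = 0.00172), Cul1 (-0.35, adjusted p = 0.0149), Herc2 (-0.32, adjusted p = 0.0303) and Rbx1 (0.39, adjusted p = 0.00608). Without replicate 1 it called none of the 7, and the values of Pcbp2, Cul1 and Herc2 were 0.03, 0.11 and 0.07. Limma on the scores called Pcbp2.

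Among other transcripts with known IREs edgeR with all 4 libraries called none. Epas1, the hypoxia factor HIF-2α, had 30.7 and 30.9 CPM with MERVL shRNA and 26.6 and 22.4 CPM with random shRNA, a log2 fold change of 0.33 ± 0.16 (edgeR adjusted p = 0.434). Cdc42bpa had 0.23 ± 0.19 and Cdc14a -0.10 ± 0.29, with overlapping groups in both. Leaving out random shRNA replicate 1, edgeR called Epas1 (0.46, adjusted p = 0.0157) and Cdc42bpa (0.42, adjusted p = 0.0366), and without replicate 2 neither. Limma on the scores called Epas1. Alas2, the erythroid enzyme of heme synthesis, stayed under 1 CPM and was not tested.

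Fthl17 genes, X-linked relatives of the ferritin heavy chain, were low, with 6.73 and 8.51 CPM over 6 genes in MERVL shRNA libraries and 8.87 and 8.64 CPM in random shRNA libraries. Fthl17e, with 0.377 and 0.568 CPM against 0.766 and 0.922 CPM, had a log2 fold change of -0.83 ± 0.51. These genes resemble each other closely, so counts may be split between them.

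Genes of export and systemic control had a median log2 fold change of -0.46 over the 5 tested, and edgeR with all 4 libraries called 0. Erfe, a hormone that lowers hepcidin, had -0.74 ± 0.39, Bmp6, an inducer of hepcidin, -0.67 ± 0.41, and Hfe2, its coreceptor, -0.46 ± 0.36. Their counts were low, 21 to 39 per library for Erfe, 15 to 27 for Bmp6 and 37 to 48 for Hfe2. Neo1, neogenin, which binds hemojuvelin, had -0.26 ± 0.21 with overlapping groups. EdgeR called it without random shRNA replicate 2 (-0.49, adjusted p = 0.000486), while its value was 0.05 without replicate 1. Hfe, the hemochromatosis protein, had 1.19 and 1.06 CPM with MERVL shRNA and 0.766 and 0.839 CPM with random shRNA, a log2 fold change of 0.49 ± 0.43. It was named after its value was seen. Hepcidin itself (Hamp) was at 0 in all libraries but MERVL shRNA replicate 2, where it had 0.0710 CPM.

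Of heme and iron-sulfur genes 12 of 16 and 18 of 29 were positive, beside 7948 of 16353 features, with medians of 0.12 and 0.07. The groups overlapped for 11 of the 16 and 14 of the 29, beside 8793 of 16353 features. Iscu, the scaffold on which iron-sulfur clusters are built, had 81.9 and 91.2 CPM with MERVL shRNA, against 48.2 and 59.3 CPM with random shRNA. Its groups were well separated, with a log2 fold change of 0.69 ± 0.16 (edgeR adjusted p = 0.329). Hscb, a cochaperone of the same scaffold, had 0.52 ± 0.20, Nfu1, a cluster carrier, 0.39 ± 0.17, and the ferredoxin Fdx1l 0.42 ± 0.19. In heme metabolism the porphyrin transporter Abcb6 had 0.54 ± 0.19 and Alad, the second enzyme of heme synthesis, -0.62 ± 0.21. Cpox, a later enzyme of that pathway, had 0.25 ± 0.14, and the heme transporter Slc48a1 0.20 ± 0.16. Limma on the scores called Iscu, Abcb6, Hscb, Fdx1l, Alad and Cpox, but not Nfu1 or Slc48a1. With all 4 libraries, the low-count filter and no term for replicate number, edgeR called none of the genes just named. With that term it called Iscu. Iscu was called when random shRNA replicate 1 was left out (0.55, adjusted p = 0.000385), when replicate 2 was (0.86, adjusted p = 2.45e-10) and with no filter on low counts. Abcb6 was called without replicate 1 (0.70, adjusted p = 0.00163) and without replicate 2 (0.41, adjusted p = 0.0452). Hscb, Nfu1, Fdx1l and Alad were called without replicate 2 and not without replicate 1, at 0.73, 0.56, 0.67 and -0.79.

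NRF2 drives ferritin, Hmox1 and Slc40a1 under oxidative stress, so other targets were listed together with the regulators Keap1, Nfe2l2 and Bach1. Of 11 tested genes 7 were positive, Keap1 among them, and the median was 0.21. The MERVL shRNA values lay higher without overlap for 6, Keap1 included (22.1% of all features), and lower for 2 (24.1%), Nfe2l2 and Bach1. With all 4 libraries edgeR called 0. Gclm, which helps make glutathione, had 84.7 and 85.6 CPM with MERVL shRNA and 72.3 and 60.3 CPM with random shRNA, a log2 fold change of 0.36 ± 0.15. Nqo1, a quinone reductase, had 0.36 ± 0.16 and Gsr, glutathione reductase, 0.29 ± 0.14. Keap1, the inhibitor of NRF2, had 0.50 ± 0.17, NRF2 itself (Nfe2l2) -0.11 ± 0.14, and Bach1, a repressor of Hmox1, -0.21 ± 0.16. Keap1 was called by edgeR when either random shRNA library was left out, at 0.55 for replicate 1 (adjusted p = 0.00293) and 0.47 for replicate 2 (adjusted p = 0.00437). Gclm (0.50), Nqo1 (0.535) and Gsr (0.36) were called without replicate 1 and not without replicate 2. Limma on the scores called Bach1, Gclc, Gclm, Gsr and Nqo1.

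**Figure D5:**
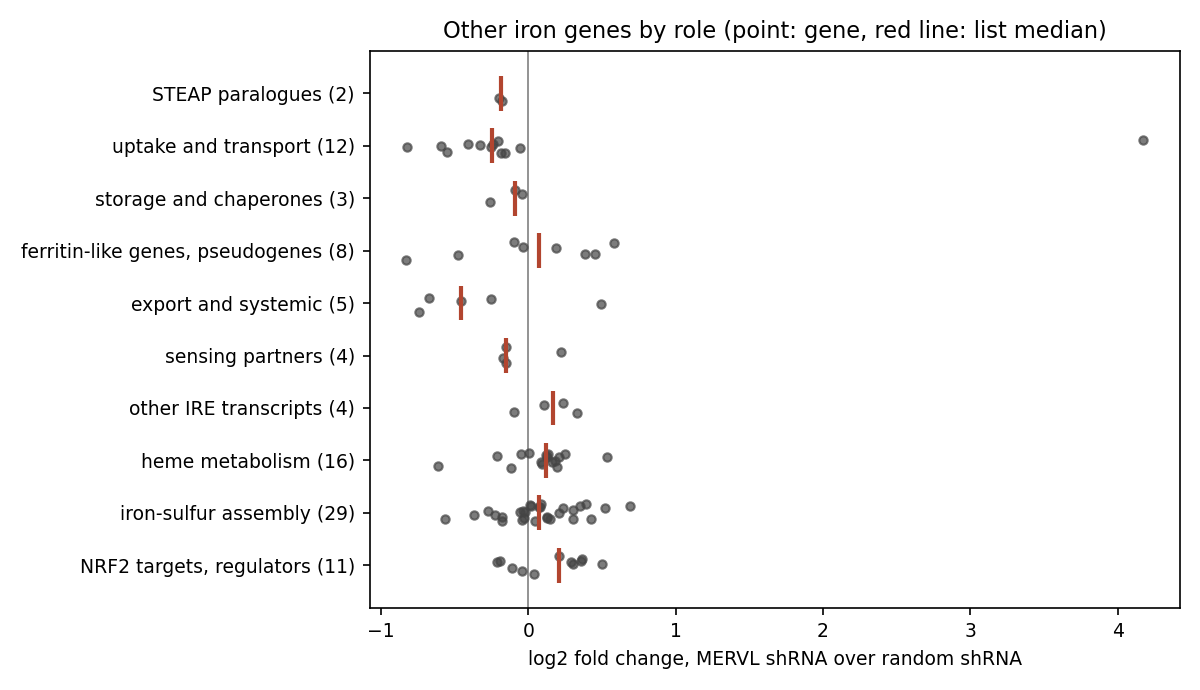
Log2 fold change, MERVL shRNA over random shRNA, of the 94 tested genes on the 10 lists, with 1 point per gene, the number tested in brackets and a red line at each list's median. Slc11a1 stands apart at 4.17, and the medians lie between -0.46 for export and systemic control and 0.21 for NRF2 targets and regulators. In the list of export and systemic control Erfe, Bmp6, Hfe2 and Hfe had only 10 to 48 counts per library.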

How the data were processed

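RNA-seq of 2 MERVL shRNA and 2 random shRNA libraries was analysed, grouped by sample title. Trim Galore, HISAT2 and build mm10 are named in the submitters' processing notes. Their versions, the counting program and its strand setting: not given in the sources used here. The authors deposited estimated counts for 45773 features, 19.1% to 20.8% of them not whole per library, which were rounded for count tests. A second table the authors deposited holds normalized scores for 17823 features, made by an unstated step. Symbols came from GENCODE M21, and 4 list symbols were matched through RefSeq synonyms. Features were fitted with edgeR 4.0.16 (R 4.3.3; TMM, filterByExpr, quasi-likelihood F test, 2-sided, Benjamini-Hochberg over all features, threshold 0.05). Standard errors came from the F statistic. Alternatives were DESeq2 1.42.0, limma-voom (limma 3.58.1), other scalings and filters, a replicate block, the scores, and each library left out. Named genes were all members, up to 4 of smallest p per list, and Slc11a1, Ncoa4, Nfe2l2, Bach1, Alas2 and Trf. A gene that this rule names is not reported here. Members and lists were chosen with earlier results of these data known. The fits were tested on simulated data in which both groups had the same spread. That check does not cover the unequal spread of the 2 pairs of libraries here.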

Additional observations from a re-analysis of the deposited data

How the results depend on the processing

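Over all features edgeR called 1 higher and 0 lower. The counts were 270 and 1023 with no filter, 70 and 158 with DESeq2, 0 and 0 with limma-voom, 2338 and 2581 on the authors' scores with limma, and 2 to 2557 and 0 to 2985 with 1 library left out. Of the 9 genes other than Steap3, limma on the scores called 4 higher and 1 lower, and leaving out 1 library gave 0 to 3 higher. With the scores 6 of the 9 lay higher and 2 lower without overlap, against 5 and 1 on CPM. Of the 94 listed pathway genes, none called by edgeR, 3 were called higher with no filter, 1 with DESeq2, 16 higher and 13 lower on the scores, and 1 to 15 higher and 0 to 11 lower with 1 library left out. These pathway counts, the pathway genes' values without a random shRNA library and the sum of the ferritin copies were chosen after seeing the data.

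The replicate numbers are shared by both groups, but nothing in the labels ties libraries of one number together, and the deviations of such libraries correlated at 0.223 across features. With the replicate block edgeR called 110 features higher and 628 lower, none of the 9 genes, and 2 pathway genes higher, Iscu and Slc11a1.

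Directions held for 7 of the 10 genes over the 12 alternatives. Leave-one-out log2 fold changes ran from -0.99 to 0.22 for Slc40a1 and from -0.14 to 0.22 for Hmox1, whose sign turned without random shRNA replicate 2, and from -0.040 to 0.13 for Aco1, whose sign turned without random shRNA replicate 1. The cause was not tested. Slc40a1 had the fewest counts of the 10, 20 to 35 per library.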
